A study of Saccharomyces cerevisiae with 6 samples.

Results

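The AOX and NOX yeast strains were compared directly, 2 arrays against 2 arrays, which makes 4 of the 6 arrays of the study. All members of both groups were taken by their labels. The 2 control arrays were used to say which strain departed from the control level for each gene that differed. All strains derived from the haploid laboratory strain CEN.PK113-7D and carried the plasmid pYX212, which was empty in the control, carried NOX in the NOX strain and carried AOX in the AOX strain. All were grown in chemostats at the critical dilution rate, on a minimal medium that held 10 g/L glucose. NOX is known as an NADH oxidase that forms water in the cytosol, and AOX as the alternative oxidase of mitochondria. The plasmid is known as a multicopy URA3 vector with the strong TPI1 promoter, so either gene was placed on a plasmid and not in the genome, and the amount of either enzyme was not measured here. The labels do not say whether a strain was 1 transformed clone, nor whether replicate arrays came from separate cultures. The p-values below therefore rest on a spread between samples that may be technical.

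Yeast cells cannot pass NADH through the inner mitochondrial membrane. NADH formed in the cytosol by glycolysis is reoxidised by alcohol dehydrogenase, by glycerol-phosphate dehydrogenase or by external NADH dehydrogenases on the outer face of that membrane, and NADH formed in the matrix is reoxidised by the internal enzyme Ndi1. A cytosolic oxidase draws on the first pool directly. An alternative oxidase takes electrons from ubiquinol and bypasses the proton-pumping complexes of the respiratory chain. Overflow metabolism is the release of ethanol and acetate by cells that also respire, and it begins above the critical dilution rate. Ethanol and acetate are taken back into metabolism by enzymes whose genes are repressed by glucose. The comparison asks how a sink for cytosolic NADH and an oxidase in mitochondria differ in the messenger RNA of the cells that carry them.

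Each array gave 1 deposited intensity per probe set, transformed here as log2(intensity + 16) and normalized so that all arrays share 1 distribution. A level below is that normalized log2 intensity, and a difference of levels is a log2 fold change on this scale; the 16 added makes changes of dim genes look smaller than they are. Levels of different probe sets cannot be set against each other. Background was set on each array at the 95th percentile of probe sets that target another organism, and between 94.8% and 97% of the S. cerevisiae probe sets lay above it. The median intensity of these probe sets lay between 511 and 543. The replicate arrays differed by a median of 0.12 log2 units in NOX, 0.07 in AOX and 0.03 in control, so the NOX pair was the least alike. On NOX replicate 1 the hybridisation controls averaged 10.99, against 9.45 to 9.86 on the other arrays, and the probe sets for ribosomal RNA were the dimmest, at a mean of 4.81 against 5.66 to 6.98. The part of these values in the results was not tested.

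Between the AOX and NOX strains, 461 of 5498 probe sets (8.38%) passed an adjusted p of 0.05 in limma. They stand for 456 genes. The level was higher in AOX for 220 (4%) and lower for 241 (4.38%). Most differences were small: those higher in AOX had a median of 0.41 log2 units and a range of 0.21 to 3.80, and those lower had a median of -0.45 and reached -3.48. A difference of 2-fold or more was seen for 65 probe sets (1.18%), of which 31 were higher (0.564%) and 34 lower (0.618%). In all 461 the 2 arrays of one strain lay wholly above the 2 arrays of the other. Such a separation is close to a condition of the call, so it adds no support. Its share over all 5498 probe sets is not given here.

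The number of calls rested on single arrays far more than the large differences did. It fell to 202 without either control replicate, to 158 without AOX replicate 1 and to 171 without AOX replicate 2, and rose to 560 without NOX replicate 1 and to 1467 without NOX replicate 2. Of the 461 probe sets, 134 were called with each array left out in turn, and these held 61 of the 65 that differed by 2-fold or more. The control arrays enter only the spread of the AOX to NOX comparison and not its difference. When either control replicate is left out, the other gives no spread, so that fit equals the fit of the 4 AOX and NOX arrays alone. An AOX to NOX call lost there rested on the spread of the control pair, the narrowest of the 3. The 15 largest differences in each direction were called under every alternative. Every gene described below as higher or lower in AOX than in NOX passed the threshold over all 5498 probe sets, and a gene that lost its call when an array was left out is named as such in its paragraph.

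**Figure D1:**
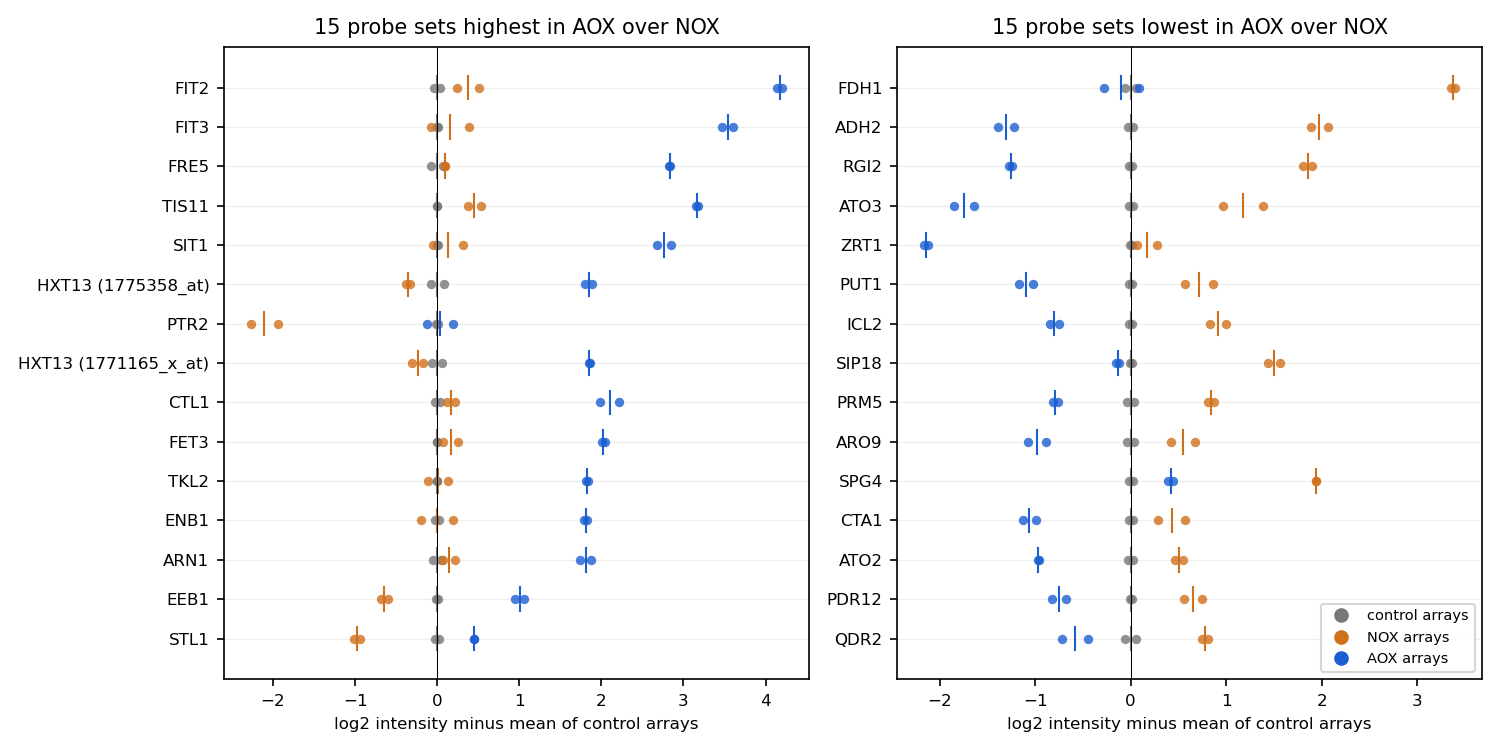
Level of each array minus the mean of the 2 control arrays, in log2 units, for the 15 probe sets highest and the 15 lowest in AOX relative to NOX; each dot is an array, each vertical bar a strain mean (n = 2). On the left 12 of the 15 probe sets departed from control in AOX alone or farther in AOX than in NOX in the same direction (FIT2 at 4.17 in AOX and 0.37 in NOX), while on the right many have NOX above control and AOX below it (ADH2 at 1.98 and -1.31).

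Each strain was then set against the control to find which of the 2 strains had left its level. Both comparisons share the control arrays and reuse the AOX and NOX arrays, so they are not independent of the first, and their values are given side by side. NOX differed from control in 204 probe sets (3.71%), 154 of them higher in NOX (2.8%) and 50 lower (0.909%). This count fell to 17 or 14 when control replicate 1 or 2 was left out, to 111 without either AOX replicate, and rose to 264 or 1453 when NOX replicate 1 or 2 was left out. AOX differed from control in 197 (3.58%), 140 of them higher in AOX (2.55%) and 57 lower (1.04%), a count that fell to 62 or 52 when control replicate 1 or 2 was left out, to 89 or 78 when AOX replicate 1 or 2 was, and rose to 364 without either NOX replicate. Of the 461 probe sets that differed between AOX and NOX, 108 passed against control in AOX alone and 112 in NOX alone. Another 25 passed in both strains in opposite directions and 14 in both in the same direction. The remaining 202 passed against control in neither strain.

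The class of a probe set is set by its calls against control, so its size and the place of the control level between the strains follow in part from the class and are given as a description. AOX-alone probe sets were higher in AOX for 77 and lower for 31, and NOX-alone probe sets were higher in AOX for 26 and lower for 86. In these last 86 the NOX strain was the one raised above control. The median size of the AOX to NOX difference was 0.56 log2 units for AOX alone, 0.57 for NOX alone and 1.29 for opposite departures, against 0.32 where neither strain passed against control. On a scale where 0 is the NOX level and 1 the AOX level, the control level stood at a median of -0.05 in the AOX-alone class, 0.92 in the NOX-alone class, 0.47 among opposite departures and 0.56 in the class with neither. Over all 461, the control mean lay between the 2 strains for 335, of which 140 were nearer to NOX and 195 nearer to AOX. These classes rest on a threshold, and a strain that did not pass against control is not shown to be at its level. Without control replicate 2 the NOX-alone class fell to 9 and the AOX-alone class to 45, and without control replicate 1 the opposite class fell to 2. Without AOX replicate 1 or 2 the AOX-alone class was 49 or 45, the NOX-alone class 45 or 56, the opposite class 14 or 13 and the class with neither 48 or 55. Without NOX replicate 1 the opposite class rose to 50 and the same-direction class to 25, and without NOX replicate 2 the NOX-alone class rose to 853, the opposite class to 72 and the same-direction class to 42. Among the genes named by rule, 44 probe sets passed against control in NOX and 68 in AOX, and 9 and 35 of these did so with each array left out. The 9 were ADH2, BAP2, FDH1, HSP26, PTR2, RGI2, SIP18, SPG4 and STL1. The 35 in AOX were those of FIT2, FIT3, SIT1, ENB1, ARN1, FET3, FTR1, FRE5, CCC2, TIS11, AFT1, CTL1, ZRT1, FRE7, ADH2, RGI2, ATO2, ATO3, POX1, FOX2, MLS1, SFC1, TKL2, HXT13 (both probe sets), HXT17, GPP2, CYC7, PGM2, YGP1, HSP26, EEB1, OPT2, PRM5 and DAL3. Any other departure of a gene named by rule lost its call with at least 1 array left out.

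**Figure D2:**
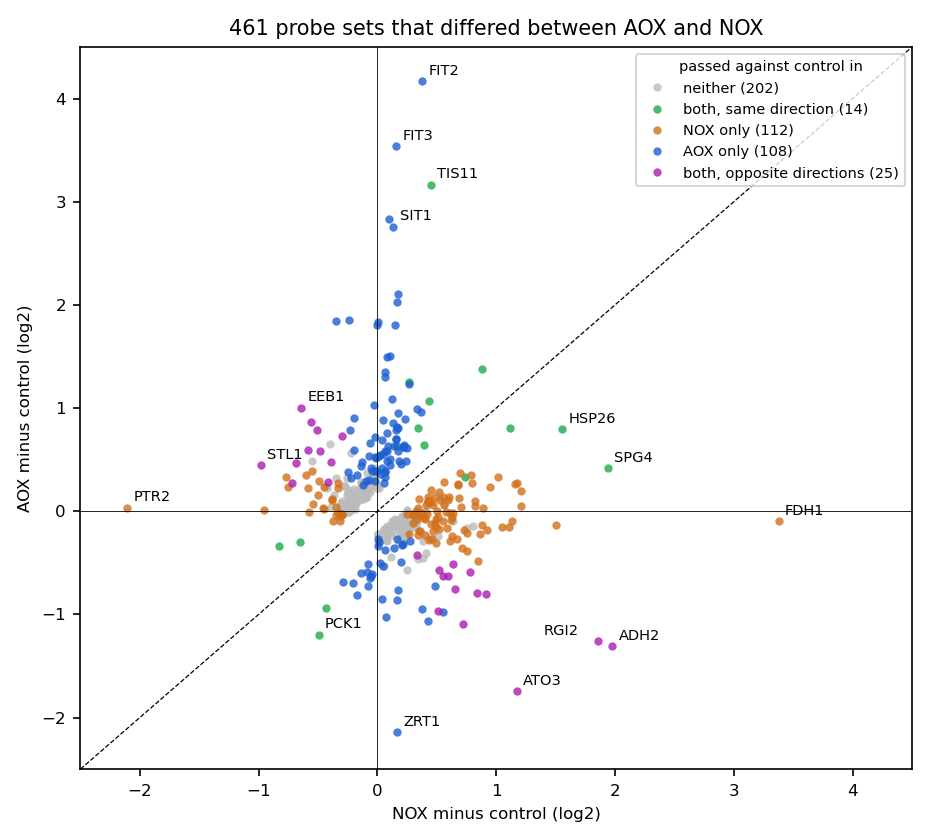
Departure of each strain from control in log2 units, NOX on the horizontal axis and AOX on the vertical axis, for the 461 probe sets that differed between the strains; colours give the class and the dashed line marks equal departures. FIT2 and FIT3 rise along the AOX axis, FDH1 and PTR2 spread along the NOX axis, and ADH2, RGI2 and ATO3 lie in the quadrant of opposite departures.

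ADH2 was among the largest differences and was lower in AOX. It encodes the glucose-repressed alcohol dehydrogenase that oxidises ethanol to acetaldehyde. Its level was 11.47 and 11.64 on the NOX arrays, 8.36 and 8.19 on the AOX arrays and 9.61 and 9.55 on the control arrays. The 3 strains did not overlap: NOX lay above control and AOX below it. AOX was 9.76-fold below NOX (log2 difference -3.29, SE 0.08, adjusted p = 3.68e-05), made up of a rise of 1.98 in NOX and a drop of 1.31 in AOX. ADH1, the fermentative alcohol dehydrogenase, differed by -0.03 (adjusted p = 0.782), and PDC1, the main pyruvate decarboxylase, by -0.03 (adjusted p = 0.749).

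RGI2, known for a role in energy metabolism during respiratory growth, had the pattern of ADH2. It measured 11.30 and 11.21 on the NOX arrays, 8.16 and 8.12 on the AOX arrays and 9.38 and 9.41 on the control arrays, a log2 difference of -3.11 (SE 0.05, adjusted p = 1.71e-05). On the scale from NOX to AOX the control stood at 0.60 for both genes. ADH2 and RGI2 were the 2 genes, of the 11 opposite departures among the 30 largest differences, whose calls against control held in both strains with each array left out.

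FDH1, an NAD-dependent formate dehydrogenase, departed in NOX alone. Its level was 8.94 and 8.99 on the NOX arrays, against 5.30 and 5.67 on the AOX arrays and 5.64 and 5.53 on the control arrays. The AOX and control arrays overlapped. AOX replicate 1 and both control arrays were below background, and AOX replicate 2 was at its edge (background 5.66). NOX was at least 9.19-fold above control. The log2 difference between AOX and NOX (-3.48, SE 0.12, adjusted p = 8.95e-05) has no firm size, since it was -2.56 with a pseudocount of 64 and -4.03 with 1. Of 12 measured alcohol and formate dehydrogenase genes, 3 were lower in AOX and none higher, against 4.38% and 4% of all probe sets, and the median of the list was -0.03. The 3 were FDH1, ADH2 and the butanediol dehydrogenase gene BDH1 (-0.33). BDH1 lost its call without either control array or either AOX array (highest adjusted p = 0.111), and the count of 3 was 5 without NOX replicate 2.

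Genes of acetaldehyde, acetate and acetyl-CoA metabolism were lower in AOX for 6 of 13 measured members, against 4.38% of all probe sets, and none was higher. The median of the list was -0.14, against 0.01 over all genes. The acetate transporter gene ADY2 measured 7.51 and 7.74 in NOX, 6.26 and 6.34 in AOX and 6.83 and 6.73 in control (log2 difference -1.33, SE 0.09, adjusted p = 0.00084). ACS1, the acetyl-CoA synthetase of respiring cells, measured 10.63 and 10.86 in NOX, 9.63 and 9.57 in AOX and 9.98 and 10.00 in control (-1.14, SE 0.08, adjusted p = 0.000989). In both genes the order was NOX, control, AOX with no overlap, and the call against control was made in NOX alone. The mitochondrial aldehyde dehydrogenase gene ALD4 differed by -0.63 and the cytosolic ALD6 by -0.33, both with a departure in NOX alone, while the acetylcarnitine carrier gene CRC1 differed by -0.69 with a departure in AOX alone. ALD6 lost its call without either control array or either AOX array (highest adjusted p = 0.104). The count for the list lay between 5 and 7 with each array left out.

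The glyoxylate cycle and gluconeogenesis build sugars from acetyl-CoA and other small carbon compounds. Of 13 measured genes, 8 were lower in AOX and 1 was higher, against 4.38% and 4% of all probe sets, with a median of -0.32. The departures were mixed within the pathway. MLS1, the malate synthase, was lower in AOX by 0.65 in a departure of AOX alone, and so were SFC1, the mitochondrial succinate-fumarate carrier (-0.89), and IDP2, the cytosolic isocitrate dehydrogenase (-0.58). MDH2, the cytosolic malate dehydrogenase, was instead raised in NOX: it measured 10.53 and 10.72 in NOX, 10.04 and 10.09 in AOX and 9.95 and 9.93 in control. JEN1, the lactate and pyruvate transporter gene, departed both ways, by 0.34 in NOX and -0.42 in AOX.

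PCK1 and ICL1 were chosen for description after their values were seen, because both strains lay below control. PCK1 encodes phosphoenolpyruvate carboxykinase, the entry step of gluconeogenesis. It measured 10.51 and 10.50 in control, 10.06 and 9.96 in NOX and 9.22 and 9.39 in AOX, so that AOX had moved farther (log2 difference -0.70, SE 0.07). ICL1, which encodes isocitrate lyase, measured 10.41 and 10.45 in control, 9.75 and 9.81 in NOX and 10.12 and 10.16 in AOX, so that NOX had moved farther (0.36, SE 0.05). FBP1, the fructose bisphosphatase, had the order of ICL1 but did not pass between AOX and NOX (0.38, adjusted p = 0.0638). MDH2 lost its call without either AOX array (highest adjusted p = 0.0834), as ICL1 did without either control array or either AOX array (highest adjusted p = 0.0942). The count of 8 fell to 5 without either AOX replicate.

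All 3 measured genes of the methylcitrate cycle, which breaks down propionyl units in mitochondria, were lower in AOX, against 4.38% of all probe sets. ICL2, the methylisocitrate lyase, measured 11.54 and 11.37 in NOX, 9.69 and 9.78 in AOX and 10.52 and 10.55 in control (log2 difference -1.72, SE 0.07, adjusted p = 0.00016). CIT3, the methylcitrate synthase, differed by -1.02 and PDH1, the methylcitrate dehydratase, by -0.49. As in all 461 called probe sets, the arrays did not overlap between AOX and NOX in these genes. NOX passed above control in each, by 0.92, 0.88 and 0.27, and AOX passed below control in ICL2 (-0.80). All 3 calls between AOX and NOX were made with each array left out.

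Peroxisomal beta-oxidation breaks fatty acids into acetyl-CoA and hydrogen peroxide. Of 21 measured genes, 12 were lower in AOX and none was higher, against 4.38% and 4% of all probe sets, with a median of -0.40. CTA1, the peroxisomal catalase, measured 9.61 and 9.33 in NOX, 7.92 and 8.05 in AOX and 9.06 and 9.02 in control (log2 difference -1.49, SE 0.10, adjusted p = 0.000806). POX1, the acyl-CoA oxidase, measured 10.06 and 9.96 in NOX, 8.95 and 9.02 in AOX and 9.86 and 9.83 in control (-1.03, SE 0.06, adjusted p = 0.000425). The AOX arrays stood apart below the other 4, and the NOX arrays lay closer to control. FOX2, the multifunctional enzyme of the pathway, differed by -0.94. The departure was in AOX alone for 6 of the 12 genes, in both strains in opposite directions for PXA1, a subunit of the fatty acyl transporter (-1.23), and in neither for 5. The count of 12 fell to 6 without AOX replicate 1 and to 7 without AOX replicate 2, and was 14 without NOX replicate 2.

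The ammonium permeases and the ATO family are membrane proteins linked to ammonium export and acetate uptake. Of 6 measured genes, 5 were lower in AOX, against 4.38% of all probe sets (median -0.98). Of the 5, 1 passed against control in neither strain. The count was 4 with only the 4 AOX and NOX arrays in the fit, and 4 with the replicate number as a block. It was also smaller with any array left out. ATO3 measured 10.67 and 11.08 in NOX, 8.06 and 7.85 in AOX and 9.68 and 9.72 in control (log2 difference -2.92, SE 0.14, adjusted p = 0.000217). ATO2 measured 12.33 and 12.41 in NOX, 10.89 and 10.90 in AOX and 11.88 and 11.84 in control (-1.47, SE 0.05, adjusted p = 8.95e-05). Both genes departed in opposite directions, with more of the distance on the AOX side. MEP2, an ammonium permease and sensor, was lower in AOX by 0.63 and passed against control in AOX alone (-0.81, against -0.18 in NOX). MEP2 lost its call between AOX and NOX without AOX replicate 2 (highest adjusted p = 0.063), where the count for the list was 3.

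**Figure D3:**
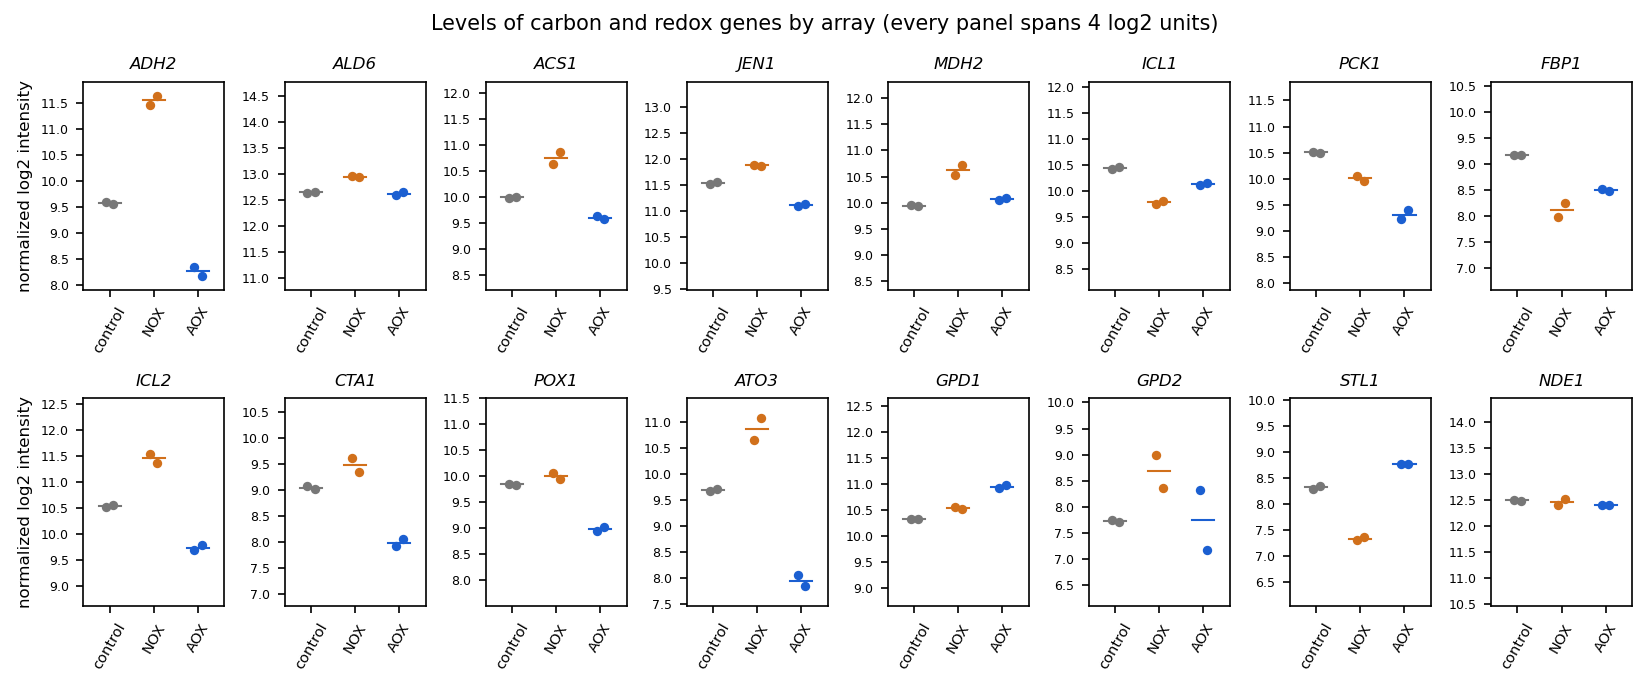
Normalized log2 intensity on each array for 16 genes of carbon and redox metabolism, with a dot per array and a bar at the mean of the 2 arrays of each strain; every panel spans 4 log2 units. ADH2, ICL2 and ATO3 are high in NOX and low in AOX, POX1 and CTA1 fall in AOX, STL1 falls in NOX, and the GPD2 replicates lie far apart.

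The enzymes that oxidise NADH in mitochondria themselves did not pass between the strains. NDE1, an external NADH dehydrogenase, differed by -0.05 (SE 0.05, adjusted p = 0.618), and its paralog NDE2 by -0.25 (SE 0.12, adjusted p = 0.274). The internal NADH dehydrogenase gene NDI1 measured 11.77 and 11.66 in NOX, 11.49 and 11.48 in AOX and 11.75 and 11.72 in control. The AOX arrays were the lowest, and the difference of -0.23 (SE 0.05, adjusted p = 0.0621) did not pass. Of the 6 fits with an array left out, 1 called NDE2 and 1 called NDI1. GUT2, the mitochondrial glycerol-phosphate dehydrogenase, differed by -0.09 and HAP4, the activator of respiratory genes, by -0.09. No member passed among 15 genes of the TCA cycle, whose differences ran from -0.13 to 0.06, or among 16 of the ATP synthase, from -0.25 to 0.03. Among 20 genes of complexes III and IV and cytochrome c, 1 passed, against 8.38% of all probe sets: CYC7, the cytochrome c form of low oxygen, was higher in AOX by 0.55. It was raised above control in AOX (0.70).

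Glycerol formation is the other outlet for cytosolic NADH. Of 12 measured genes, 4 were higher in AOX and 2 lower, against 4% and 4.38% of all probe sets. GPD1, the glycerol-phosphate dehydrogenase that consumes NADH, measured 10.92 and 10.98 in AOX, 10.56 and 10.53 in NOX and 10.32 and 10.33 in control (log2 difference 0.41, SE 0.05, adjusted p = 0.00671). GPP2, the glycerol phosphatase, was higher in AOX by 0.84 and YPR1, a reductase of the same group, by 0.61, both with a departure in AOX alone. STL1, the symporter that takes glycerol back into the cell, measured 8.77 and 8.76 in AOX, 7.30 and 7.37 in NOX and 8.30 and 8.34 in control (1.43, SE 0.05, adjusted p = 8.95e-05). It departed in both strains, with the larger part in NOX (-0.98, against 0.45 in AOX). GCY1, a glycerol dehydrogenase of the reverse pathway, was raised in NOX: it was lower in AOX by 0.91 and stood 1.18 above control in NOX.

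GPD2, the paralog of GPD1 that responds to lack of oxygen, could not be placed. It measured 9.00 and 8.36 in NOX, 8.32 and 7.17 in AOX and 7.74 and 7.71 in control. Both pairs were wide apart, and the difference of -0.93 (SE 0.39, adjusted p = 0.233) lay within their spread. GPD1 lost its call without AOX replicate 2 (highest adjusted p = 0.0615) and GCY1 without AOX replicate 1 (highest adjusted p = 0.0556). The 2 lower genes of the list became 1 without either control replicate and 0 without AOX replicate 1.

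Sugar transport and the early steps of sugar use differed in a few genes. Of 19 measured genes for hexose transport and glucose sensing, 4 were higher in AOX and 2 lower, against 4% and 4.38% of all probe sets. HXT13, which encodes a transporter of hexoses and polyols, was below background in NOX and control and measured 6.59 and 6.50 in AOX, at least 1.84-fold above NOX (adjusted p = 8.95e-05). Its other probe set, shared with related genes, gave at least 1.70-fold. HXT4, a glucose transporter gene, was higher in AOX by 0.55, and HXT2, the high-affinity transporter gene, was lower by 0.69 with a departure in NOX alone (0.52). HXT1, the low-affinity transporter gene, was below background on every array, and HXT7, measured by a probe set shared with its near-identical copy, differed by -0.03 (adjusted p = 0.782). In glycolysis, 1 of 19 genes passed, a share near the 8.38% of all probe sets: GPM2, a minor phosphoglycerate mutase homolog, was lower in AOX by 0.33 and lost its call with any array but NOX replicate 2 left out (highest adjusted p = 0.236). TPI1, whose promoter the plasmid uses, differed by 0.02 (adjusted p = 0.882).

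In the pentose phosphate pathway, TKL2, the minor transketolase, was high in AOX alone. It measured 8.89 and 8.86 in AOX, 6.93 and 7.18 in NOX and 7.05 and 7.05 in control (log2 difference 1.82, SE 0.09, adjusted p = 0.000191). Of 17 measured genes of the pathway, 2 were higher in AOX and 4 lower, against 4% and 4.38% of all probe sets. YEF1, an NAD and NADH kinase that makes NADP and NADPH, was lower in AOX by 0.69 and raised above control in NOX (0.63). It lost its call between AOX and NOX without either AOX array (highest adjusted p = 0.083), and the count of 4 fell to 2 without either control replicate, to 1 without AOX replicate 1 and to 0 without AOX replicate 2.

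Genes for iron uptake made the largest differences in the other direction. Yeast imports iron bound to siderophores, with mannoproteins of the cell wall that hold the chelate and transporters of the ARN family, and also by a reductive route in which reductases, the oxidase Fet3 and the permease Ftr1 act in turn. The activator Aft1 turns on both routes when iron is scarce. Of 7 measured genes for siderophore uptake, 6 were higher in AOX and none lower, against 4% and 4.38% of all probe sets, with a median of 1.81 log2 units. All 6 departed from control in AOX alone.

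FIT2, a mannoprotein that retains siderophore iron in the cell wall, had the largest difference at the pseudocount of 16; at a pseudocount of 1 that of FDH1 was larger. It measured 12.57 and 12.51 in AOX, 8.61 and 8.88 in NOX and 8.33 and 8.40 in control, 13.9-fold higher in AOX than in NOX (log2 difference 3.80, SE 0.10, adjusted p = 3.68e-05). FIT3 measured 12.95 and 12.82 in AOX, 9.27 and 9.74 in NOX and 9.35 and 9.34 in control (3.38, SE 0.15, adjusted p = 0.000191). In both genes the AOX arrays stood far above the other 4, and in FIT3 the NOX and control arrays overlapped. SIT1, the ferrioxamine transporter gene, differed by 2.63, ENB1, the enterobactin transporter gene, by 1.81, and ARN1, the ferrichrome transporter gene, by 1.66. The remaining gene, ARN2, was below background on every array, and FIT1 (0.36) lost its call without either control array or either AOX array (highest adjusted p = 0.225).

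The reductive route was higher in AOX for 12 of 14 measured genes and lower for 1, against 4% and 4.38% of all probe sets, with a median of 0.66. FET3, the multicopper ferroxidase, measured 12.05 and 12.02 in AOX, 10.08 and 10.27 in NOX and 10.01 and 10.01 in control (log2 difference 1.86, SE 0.07, adjusted p = 0.000106). FTR1, its partner permease, measured 11.80 and 11.84 in AOX, 10.82 and 10.84 in NOX and 10.57 and 10.56 in control (0.99, SE 0.05, adjusted p = 0.000191). FET3 departed in AOX alone, whereas FTR1 also passed above control in NOX, by 0.26. CCC2, which supplies copper to Fet3, was higher in AOX by 1.29.

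Reductase genes did not all move alike. FRE5, a putative ferric reductase of mitochondria, was below background on all NOX and control arrays and measured 7.70 and 7.69 in AOX, at least 4.08-fold above NOX (adjusted p = 3.64e-05). FRE1 and FRE3, chosen after their values were seen, were higher in AOX by 0.75 and 0.96. FRE4, chosen in the same way, measured 6.60 and 6.65 in NOX, 5.45 and 5.66 in AOX and 5.99 and 5.84 in control. It was lower in AOX than in NOX and passed against control in NOX alone (0.71), and since 1 AOX array was below background and the other at its edge, the size of the AOX to NOX difference is not firm. The count of 12 for the reductive route fell to 7 without either control replicate, to 6 without AOX replicate 1 and to 7 without AOX replicate 2.

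Genes that regulate or spare iron were higher in AOX for 7 of 18 and lower for 2, against 4% and 4.38% of all probe sets. TIS11, also called CTH2, encodes a protein that binds and destabilises messenger RNAs of iron-dependent enzymes. It measured 8.42 and 8.44 in AOX, 5.80 and 5.64 in NOX and 5.27 and 5.26 in control (log2 difference 2.71, SE 0.06, adjusted p = 3.64e-05). Both control arrays and 1 NOX array were below background. TIS11 stood at least 6.35-fold above control in AOX. It also passed above control in NOX (0.45), a difference without a firm size. AFT1 itself measured 9.63 and 9.67 in AOX, 9.01 and 9.02 in NOX and 8.88 and 8.85 in control (0.63, SE 0.05, adjusted p = 0.00111). CTL1, an RNA triphosphatase that is no member of these lists and was named for its size, was higher in AOX by 1.93. Of 16 genes for mitochondrial iron-sulfur cluster assembly 1 passed, the scaffold gene ISU2 (0.54), and of 8 genes for heme synthesis none, against 8.38% of all probe sets. In lists this small, such counts do not set the lists apart from all probe sets. ISU2 lost its call without either AOX array (highest adjusted p = 0.0597), and MRS4, a mitochondrial iron carrier gene of the regulator list (0.51), without AOX replicate 2 (highest adjusted p = 0.0557). The count of 7 higher genes was 4 without AOX replicate 2 and 10 without NOX replicate 2.

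ZRT1, the high-affinity zinc transporter gene, measured 7.80 and 7.76 in AOX, 9.99 and 10.20 in NOX and 9.94 and 9.92 in control. AOX stood 4.97-fold below NOX (log2 difference -2.31, SE 0.08, adjusted p = 8.95e-05), and NOX did not pass against control (0.17). Of 15 measured zinc genes, 2 were lower in AOX and 2 higher, against 4.38% and 4% of all probe sets. IZH4, a membrane protein gene linked to zinc, was lower in AOX through a rise in NOX: it measured 8.42 and 8.53 in NOX, 7.59 and 7.64 in AOX and 7.60 and 7.56 in control. The low-affinity transporter gene ZRT2 differed by -0.14 (adjusted p = 0.223). The 2 higher genes, DPP1 (0.28) and IZH2 (0.30), both lost their calls without either control array or either AOX array. DPP1 also lost its call without NOX replicate 1.

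Of 11 measured copper genes, 3 were lower in AOX and 1 was higher, against 4.38% and 4% of all probe sets. FRE7, a reductase gene of the copper regulon, measured 7.60 and 7.52 in AOX, 8.64 and 8.66 in NOX and 8.57 and 8.60 in control (log2 difference -1.09, SE 0.05, adjusted p = 0.000208). CTR1, a copper transporter gene of the plasma membrane, was lower in AOX by 0.59 and CTR3, the other such gene, by 0.42, whereas CTR2, the vacuolar exporter gene, was higher by 0.42. FRE7 was the only one of these 4 called with each array left out. CTR1 lost its call without either control array or either AOX array (highest adjusted p = 0.184), CTR3 without either AOX array (0.0681) and CTR2 without AOX replicate 1 (0.0698).

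**Figure D4:**
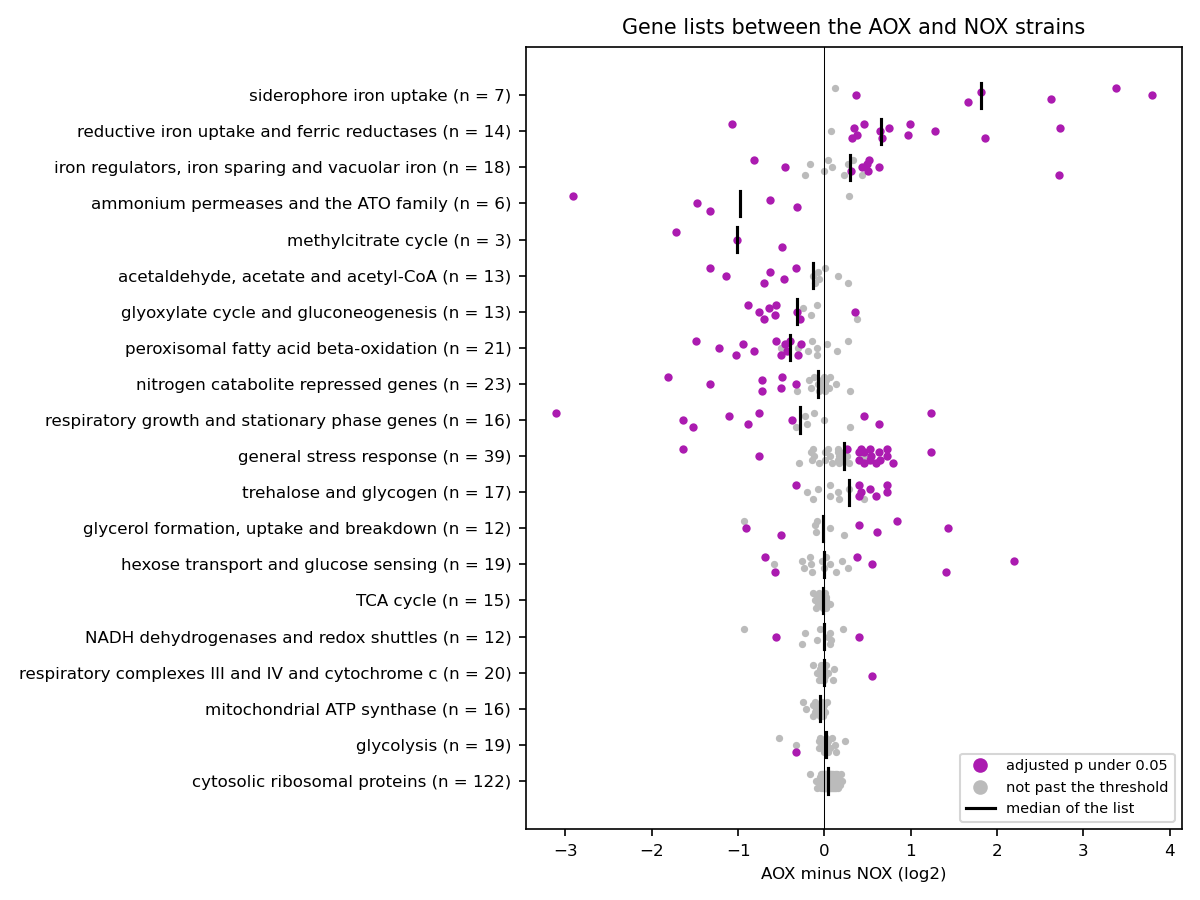
AOX minus NOX difference in log2 units for every measured gene of 20 lists, with a dot per gene, coloured where the adjusted p was under 0.05, and a bar at the median of the list. Iron uptake lies to the right (median 1.81 for siderophore uptake), the methylcitrate cycle (-1.02) and the ATO family (-0.98) lie to the left, and the TCA cycle, the ATP synthase and the ribosomal proteins lie near 0.

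Of 23 measured genes under nitrogen catabolite repression, the shutdown of poor nitrogen sources, 7 were lower in AOX and none higher, against 4.38% and 4% of all probe sets, with a median of -0.08. PUT1, the proline oxidase of mitochondria, measured 10.46 and 10.17 in NOX, 8.43 and 8.57 in AOX and 9.58 and 9.61 in control (log2 difference -1.82, SE 0.11, adjusted p = 0.000454). GDH3, an NADP-dependent glutamate dehydrogenase, was lower in AOX by 1.32 with a departure in AOX alone (-0.95), and GDH2, the NAD-dependent enzyme that breaks glutamate down, by 0.72 with a departure in NOX alone (0.46). GDH3 lost its call without AOX replicate 2 (highest adjusted p = 0.0531). The count of 7 fell to 4 without either control replicate and to 3 without AOX replicate 2.

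Peptide and amino acid transport held the largest departure of NOX downwards. PTR2, the peptide transporter gene, measured 6.99 and 7.32 in NOX, 9.45 and 9.13 in AOX and 9.25 and 9.27 in control. The AOX and control arrays overlapped and NOX stood apart, 4.41-fold below AOX (log2 difference 2.14, SE 0.14, adjusted p = 0.000806). OPT2, an oligopeptide transporter gene, was higher in AOX by 1.42 with departures in opposite directions (-0.56 in NOX and 0.86 in AOX). BAP2, a permease gene for branched-chain amino acids, was lower in AOX by 1.20 and raised in NOX alone (1.05). Of 25 measured amino acid and peptide permease genes, 7 were higher in AOX and 4 lower, against 4% and 4.38% of all probe sets, and the 7 fell to 3 without either AOX replicate.

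The Ehrlich pathway turns amino acids into fusel alcohols, and other enzymes form aroma esters. Of 12 measured genes of both groups, 1 was higher in AOX and 3 were lower, against 4% and 4.38% of all probe sets. The higher one was the ester gene EEB1. EEB1, which makes ethyl esters of fatty acids, measured 9.63 and 9.73 in AOX, 7.99 and 8.08 in NOX and 8.66 and 8.69 in control (log2 difference 1.65, SE 0.06, adjusted p = 9.27e-05). ARO9, an aromatic aminotransferase, measured 6.93 and 6.74 in AOX, 8.24 and 8.49 in NOX and 7.78 and 7.85 in control (-1.53, SE 0.11, adjusted p = 0.00084). In both genes the control lay between the strains. BAT2, another aminotransferase gene, was lower in AOX as well (-0.84). ARO10, the decarboxylase of the same route, was lower in AOX by 0.95 but lost its call with either control array, NOX replicate 1 or AOX replicate 1 left out (highest adjusted p = 0.0918). Of 59 measured genes for amino acid biosynthesis, 8 were higher in AOX and 1 lower, against 4% and 4.38% of all probe sets, and no member passed against control in either strain. The 8 fell to 0 without any control or AOX array and rose to 25 without NOX replicate 2.

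Stress and stationary phase genes differed between the strains. Of 39 measured genes of the general stress response, 16 were higher in AOX and 2 lower, against 4% and 4.38% of all probe sets. The median of the list was 0.17 above control in NOX and 0.46 above control in AOX. Against control, 12 passed higher in NOX and 25 higher in AOX, against 2.8% and 2.55% of all probe sets. In NOX 1 passed lower (0.909% of all probe sets), and in AOX none did. YGP1, a secreted glycoprotein gene induced when nutrients run low, measured 10.92 and 10.78 in AOX, 9.50 and 9.73 in NOX and 9.56 and 9.55 in control (log2 difference 1.24, SE 0.09, adjusted p = 0.000989). PGM2, a phosphoglucomutase, and GPH1, the glycogen phosphorylase, were each higher in AOX by 0.72 with departures in AOX alone. GPH1 lost its call without AOX replicate 2 (highest adjusted p = 0.052). The count of 16 fell to 10 without either control replicate, to 7 without AOX replicate 1 and to 5 without AOX replicate 2.

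The 2 stress genes that were lower in AOX, HSP26 and SIP18, had larger departures in NOX. HSP26, a small heat shock protein, measured 12.07 and 12.08 in NOX, 11.32 and 11.31 in AOX and 10.52 and 10.51 in control (log2 difference -0.76, SE 0.04, adjusted p = 0.000454). Both strains were above control, NOX by 1.56 and AOX by 0.80. SIP18, a phospholipid-binding protein of osmotic stress and drying, measured 9.61 and 9.74 in NOX, 8.05 and 8.02 in AOX and 8.18 and 8.16 in control (-1.64, SE 0.06, adjusted p = 9.27e-05). SPG4, needed for survival in stationary phase, measured 9.38 on both NOX arrays, 7.89 and 7.84 in AOX and 7.47 and 7.43 in control (-1.52, SE 0.05, adjusted p = 8.95e-05). It passed above control in both strains, by 1.94 in NOX and 0.42 in AOX.

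Among 16 genes of respiratory growth and stationary phase, RGI2 among them, 7 were lower in AOX and 3 higher, against 4.38% and 4% of all probe sets. The median of the list was 0.42 above control in NOX and 0.18 in AOX. Against control, 9 passed higher in NOX and 6 higher in AOX, against 2.8% and 2.55% of all probe sets. In AOX 1 passed lower (1.04% of all probe sets), and in NOX none did. For the 7 lower genes the count was 5 without either AOX replicate and 9 without either NOX replicate, and the 3 higher genes became 1 without AOX replicate 1. Trehalose and glycogen genes, the storage carbohydrates, were higher in AOX for 7 of 17 and lower for 1, against 4% and 4.38% of all probe sets. The 7 fell to 4 without either control replicate and to 2 without AOX replicate 2, and rose to 11 without NOX replicate 2.

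Transporters and wall proteins outside these pathways completed the largest differences. PDR12, the pump that expels weak acids, measured 12.45 and 12.27 in NOX, 10.88 and 11.03 in AOX and 11.72 and 11.70 in control (log2 difference -1.40, SE 0.08, adjusted p = 0.000454). QDR2, a multidrug transporter gene, was below background on both AOX arrays and measured 6.63 and 6.70 in NOX, at least 1.93-fold lower in AOX (adjusted p = 0.000942). PRM5, a membrane protein gene of the cell wall integrity pathway, measured 9.43 and 9.48 in NOX, 7.85 and 7.80 in AOX and 8.58 and 8.65 in control (-1.63, SE 0.05, adjusted p = 8.95e-05). In each of the 3 genes NOX lay above control and AOX below. Of 24 measured cell wall genes, 4 were higher in AOX and 1 lower, against 4% and 4.38% of all probe sets. Among them were the mannosyltransferase gene MNN1 (0.99) and the mannoprotein genes CWP1 (0.94) and TIP1 (-1.09). The 4 fell to 2 without either AOX replicate.

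None of 122 cytosolic ribosomal protein genes passed, against 8.38% of all probe sets, with differences between -0.16 and 0.20. Of 53 ribosome biogenesis genes 3 were higher in AOX, by 0.21 to 0.26, a share near the 4% of all probe sets, and of 68 mitochondrial ribosomal protein genes 1 was lower, MRPL28 (-0.26). All 4 lost their calls without either control array or either AOX array (highest adjusted p = 0.226), while the count of 3 was 9 without either NOX replicate. Of 29 cell cycle genes 2 passed, a share near the 8.38% of all probe sets. The ribonucleotide reductase gene RNR1 was higher in AOX by 0.27 and RNR2, of the same enzyme, lower by 0.29. Both lost their calls without either control array or either AOX array, and RNR1 also without NOX replicate 1. The dilution rate of each strain is not given here in numbers, so a difference in growth rate between AOX and NOX cannot be told apart from the difference in enzyme.

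URA3, the selection marker of the plasmid, measured 13.02 and 13.08 in NOX, 12.71 and 12.62 in AOX and 13.32 and 13.36 in control. AOX was the lowest and control the highest, without overlap, and the difference between AOX and NOX was -0.39 (SE 0.06, adjusted p = 0.0122). The call was lost without either control array or either AOX array (highest adjusted p = 0.0902). Neither transgene was measured by a named probe set, so the labels of the NOX and AOX arrays could not be checked on the genes themselves. As a check of the labelled strain, all 7 measured genes specific to mating type a were above background on both control arrays. So were 3 of 4 genes specific to type alpha and 5209 of all 5498 probe sets, so this check cannot separate the mating types. Of the type a genes, MFA2 was higher in AOX by 0.52 and lost its call with any array but NOX replicate 2 left out (highest adjusted p = 0.147).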

How the data were processed

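Biotin-labelled total RNA of chemostat cultures was measured on Affymetrix arrays of the type Yeast Genome 2.0, per the labels. The authors deposited 1 linear summarised intensity per probe set and array, made with a program not given in the sources used here. Titles gave the groups. Of 10928 probe sets, 5498 matched 1 S. cerevisiae gene through the platform annotation and the R64 gene table and were tested, 1746 of another organism set the background, and 3470 unnamed and 213 control probe sets were not tested there. Coordinates are not printed, since the annotation names no build. No sequence table was used here, so no sequences are printed.

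Deposited intensities were transformed as log2(value + 16) and, because array medians differed by up to 0.204 (limit 0.1), quantile-normalized over all probe sets. The test was limma 3.58.1 (R 4.3.3) with lmFit and eBayes, a mean per strain over 6 arrays (3 residual and 2.77 prior degrees of freedom) and Benjamini-Hochberg adjustment over 5498 probe sets at 0.05. Fitting all 6 arrays lets the control arrays enter the estimate of the spread. SE is limma's, with n = 2 arrays per strain, and this number limits precision. Folds of genes below background on both arrays of the lower strain are bounds against the 95th percentile of the other organism's probe sets. The departure class of a probe set joins its calls in NOX against control and AOX against control.

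The genes named were, by rule, the 15 largest differences in each direction among called probe sets without overlap, up to 4 called members of each of 43 lists by adjusted p, and 17 genes of NADH, ethanol and glycerol metabolism and of the plasmid. Other genes were named after their values were seen. Genes and lists (915 genes, 18 not analysed here) were chosen with earlier results of these data known, so their counts are descriptions and carry no test of the list. Some genes belong to more than 1 list, so the counts of lists are not independent of each other. Among such genes are YGP1, in the stress and respiratory growth lists, and ADY2, in the acetate and ATO lists. Same-numbered arrays did not deviate together (correlations of deviations 0.12 for control and NOX, -0.21 for control and AOX, -0.60 for NOX and AOX), so the numbers were not used to pair samples. The value of -0.60 means that NOX replicate 1 deviated together with AOX replicate 2, and NOX replicate 2 with AOX replicate 1. What these crossed arrays share was not tested. The alternatives were other normalizations, pseudocounts of 1 and 64, leaving out dim probe sets, a variance trend, only the 4 AOX and NOX arrays, a replicate block, a threshold of 0.01 and each array left out. A simulated comparison of AOX with NOX held 5498 probe sets, 200 of them changed. The fit made 205 calls there, 15 of them wrong. It found 82% of 50 changes of 0.5 log2 units, 98% of 50 changes of 1 and 100% of larger ones. These rates describe the simulated noise alone. The real strains were unequal in spread (median SD 0.0195 in control, 0.0483 in AOX and 0.0874 in NOX), and deviations in NOX and AOX were correlated. Whether the rates carry over to these arrays was not tested.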

Additional observations from a re-analysis of the deposited data

Results flagged for a closer look

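The 25 probe sets that passed against control in both strains but in opposite directions are listed for a closer look, since the departures of the strains from control differed by the test of AOX against NOX itself. In the values that follow, the first number is the AOX minus NOX difference in log2 units, and the NOX and AOX departures from control follow it where they have not been given.

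Lower in AOX were ADH2 (-3.29), RGI2 (-3.11), ATO3 (-2.92), PUT1 (-1.82, from 0.72 and -1.10), ICL2 (-1.72), PRM5 (-1.63, from 0.84 and -0.79), ATO2 (-1.47), PDR12 (-1.40, from 0.65 and -0.75), QDR2 (-1.36), PXA1 (-1.23, from 0.59 and -0.63), the water channel gene AQY2 (-1.18, from 0.55 and -0.63), YIG1 (-1.15, from 0.64 and -0.51), TIP1 (-1.09, from 0.51 and -0.57) and JEN1 (-0.76). In all 14 of these the NOX strain was above control and the AOX strain below it. QDR2 was below background on both AOX arrays, so its difference is a fitted value and not a bound.

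Higher in AOX were EEB1 (1.65, from -0.64 and 1.01), STL1 (1.43), OPT2 (1.42), HMS1 (1.29, from -0.51 and 0.79), YBL029W (1.18, from -0.58 and 0.60), YNL134C (1.15, from -0.69 and 0.46), the polyamine exporter gene TPO2 (1.07, from -0.49 and 0.58), the cell wall sensor gene WSC4 (1.02, from -0.30 and 0.73), MNN1 (0.99, from -0.72 and 0.27), FSH1 (0.87, from -0.39 and 0.48) and PRM7 (0.70, from -0.42 and 0.28). HMS1, which encodes a transcription factor, was below background on all NOX and control arrays, so its NOX departure is not a measured one, and it was at least 1.33-fold higher in AOX than in NOX. ADH2 and RGI2 are the only 2 of the 11 opposite departures among the 30 largest differences that were called in both strains with each array left out.

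Probe sets without a single gene name, which none of the comparisons above use, also differed. In a fit of all but the control probe sets, 22 of 3471 such probe sets (0.634%) passed between AOX and NOX. Of these, 12 were higher in AOX and 10 lower. The same fit called 1 of 1746 for the other organism (0.0573%) and 291 of 5498 for S. cerevisiae (5.29%). The largest of the 22 was higher in AOX by 1.99 (SE 0.09, adjusted p = 0.000167), with departures of 0.08 in NOX and 2.07 in AOX. The other one past 2-fold was lower in AOX by 1.16 (0.38 in NOX and -0.78 in AOX). Their genes are not named here.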

How the results depend on the processing

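The direction of a called probe set could change only with another normalization or pseudocount. With an array left out it was fixed, since the AOX and NOX arrays did not overlap, and the other alternatives left the difference unchanged. All 461 probe sets kept their direction under every alternative in which they were tested. Their number was 202 (95 higher and 107 lower in AOX) with only the 4 AOX and NOX arrays in the fit and 195 (93 and 102) at an adjusted p of 0.01, where 76 passed in NOX and 115 in AOX against control, with 34 in the NOX-alone class, 13 opposite, 3 in the same direction and 72 in neither. With the replicate number as a block, which does not pair the samples here, 237 passed (112 and 125), 79 passed in NOX and 124 in AOX against control, and the NOX-alone class held 43, the opposite class 15, the same-direction class 3 and neither 100. With the numbers crossed, an alternative chosen after seeing the data, 562 passed, with 365 in NOX against control. Without further normalization the same-direction class held 9 probe sets.

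With each array left out, the calls between AOX and NOX ran from 158 to 1467 (70 to 737 higher in AOX and 88 to 730 lower), those of NOX against control from 14 to 1453 and those of AOX against control from 52 to 364. The AOX-alone class ran from 45 to 161, the NOX-alone class from 9 to 853, the opposite class from 2 to 72, the same-direction class from 1 to 42 and neither from 48 to 357. The lone array left in a strain was then given the spread of the other strains.

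The other normalizations, pseudocounts, filter and variance trend kept the number called between 406 and 492. The 492 came from quantile normalization of the S. cerevisiae probe sets alone, chosen after seeing the data. The number was 291 when all but the control probe sets were fitted and adjusted together, and 65 of the 291 were past 2-fold. The count past 2-fold was 43 at a pseudocount of 64 and 79 at 1. Among the 113 called probe sets named by rule, 1784 of 2034 values under alternatives stayed called, 250 lost the call and 0 changed direction. Here too the direction could change only with the normalization or the pseudocount. Signal over background limits the 19 called probe sets whose lower strain was dark on both arrays. With 2 arrays per strain, a gene that did not pass is not shown to be equal in AOX and NOX.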
